A study of Sus scrofa with 8 samples.

Results

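AXIN2, SP5, LGR5, RSPO1, RSPO3, LEF1, TCF7, NKD1, SFRP2 and WIF1 are common readouts and regulators of Wnt/β-catenin signalling. They were taken by name, in a choice made with earlier results of these data known. The rows used were those of the deposited count table whose pig Ensembl identifier maps to one of these symbols. All 10 were found among 22516 genes, and all 10 were among the 17020 genes that passed the filter on low counts. The libraries come from bulk RNA sequencing of limb muscle tissue of pig (Sus scrofa) embryos on embryonic days 41 (E41) and 62 (E62), as the samples are labelled. For the later stage the growth protocol gives E60, so its day is uncertain. At each stage the study set wild-type embryos against knockouts of MYF5, MYOD (gene symbol MYOD1) and MYF6, transcription factors that set up and maintain the skeletal muscle lineage. The 4 groups, wild type E41, knockout E41, wild type E62 and knockout E62, had 2 libraries each, and the titles call the replicates biological. The sources used here do not give how the knockout was made, which animals or litters the libraries came from or whether tissue was pooled, so p-values measure only the spread between these libraries. The names of both wild-type E41 libraries carry the tag LHL and those of the other 6 the tag RHL. What the tags mark is not stated, and at E41 the tag and the genotype cannot be told apart, nor the tag and the stage in wild type. The knockout E62 library names share a number and add Emb1 and Emb4.

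In canonical Wnt signalling a Wnt ligand binds a Frizzled receptor and an LRP co-receptor, the destruction complex that holds β-catenin down is blocked, and β-catenin joins LEF1, TCF7 and related DNA-binding proteins at target genes. R-spondins are secreted proteins that bind LGR receptors and the ubiquitin ligases RNF43 and ZNRF3, which otherwise remove Frizzled from the cell surface, so that cells respond more to the same Wnt. Several targets, among them AXIN2, NKD1 and RNF43, are themselves brakes on the pathway. In the limb, Wnt ligands from the surface ectoderm and the mesenchyme act on connective tissue and on muscle progenitors.

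The targeted genes were measured first. MYF5 and MYF6 had 0 counts in all 4 knockout libraries, while MYOD1 had 20 to 88 counts there against 1503 to 5715 in wild type. Total counts ranged from 23402052 to 60539245 per library. Skeletal muscle markers, 9 genes from ACTA1 to PAX7, fell in the knockout at both stages (9 of 9). Their summed level at E41 was 12657 to 14193 TMM-scaled CPM (counts relative to the library total after TMM, which evens out differences in library composition) in wild type and 24.0 to 27.8 CPM in knockout. At E62 the same sum was 32839 to 40111 CPM in wild type and 10.4 to 12.8 CPM in knockout, and no marker was at 0 in both libraries of a group. Knockout tissue labelled limb muscle therefore held almost no muscle transcript. Connective tissue fibroblast markers rose, 7 of 9 at E41 and 8 of 9 at E62. Their sum was 17134 to 27507 CPM in wild type against 38342 to 39780 CPM in knockout at E41, and 20473 to 37046 CPM against 67078 to 73110 CPM at E62. Over all genes 18.5% rose and 20.8% fell at E41, and 21.0% rose and 26.2% fell at E62. Macrophage markers rose at E62 in 6 of 6 (139 to 163 CPM in wild type against 574 to 595 CPM in knockout, summed). Adipocyte markers rose in 4 of 5, with 1 lower, and their sums overlapped (128 to 154 CPM against 125 to 188 CPM). Endothelium markers rose in 4 of 7. Smooth muscle and pericyte markers (6 genes) had 2 higher and 3 lower, with sums of 1418 to 1525 CPM against 470 to 602 CPM. Schwann cell markers (6 genes) had 1 higher and 2 lower, at 502 to 518 CPM against 55.5 to 62.3 CPM. Tendon markers (6 genes) had 0 higher and 1 lower, and bone markers (7 genes) 2 and 2. In bulk tissue fewer cells of a type and less RNA per cell cannot be told apart, and the part of tissue makeup in the results was not tested. At E41 skin epithelium markers (6 measured) summed to 690 and 1201 CPM in wild type, against 1494 and 882 CPM in knockout. At E62 they summed to 26.4 and 30.4 CPM in wild type, and to 629 CPM in knockout replicate 1 against 42.2 CPM in replicate 2. Cartilage markers (8 measured) summed to 274 to 1024 CPM in wild type and 373 to 4369 CPM in knockout at E41, and to 74.4 to 101 CPM and 49.5 to 120 CPM at E62, where SNORC was at 0 in both wild-type libraries.

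**Figure D1:**
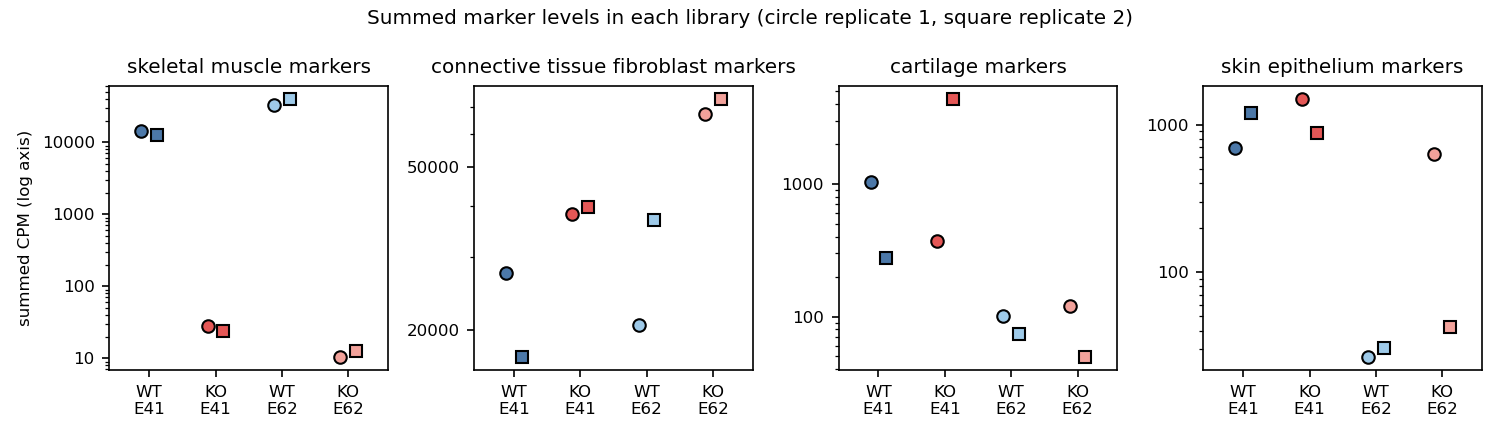
Summed level of cell type markers in each library, in TMM-scaled CPM on a log axis, by genotype (WT wild type, KO knockout) and stage. Circles are replicate 1 and squares replicate 2; skeletal muscle markers separate the genotypes by over 2 log units, and skin epithelium markers separate the 2 knockout E62 libraries (629 and 42.2 CPM).

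The first question was whether Wnt readouts differ between knockout and wild-type limbs at each stage. Levels are CPM after TMM scaling (trimmed mean of M values) and are given for replicates 1 and 2 in that order. They are not divided by gene length, so levels are compared between libraries and not between genes. A gene was called changed at a Benjamini-Hochberg adjusted p under 0.05 in edgeR's quasi-likelihood test over all 17020 genes. At E41, 6 of the 10 genes rose in the knockout (AXIN2, SP5, LGR5, RSPO3, TCF7 and SFRP2), where 18.5% of all genes tested rose. At E62, 9 of 10 rose, all but NKD1, where 21.0% of all genes rose. By the edgeR test 0 of the 10 fell at either stage, where 20.8% of all genes fell at E41 and 26.2% at E62. It was 0 also at an unadjusted p under 0.05 and with DESeq2. The median log2 change was 1.48 at E41 and 2.20 at E62, against 0.09 and 0.06 over all genes. Because the genes were chosen with earlier results of these data known, the all-gene values are given for scale and not as a test. Both knockout libraries lay above both wild-type libraries for 10 of 10 genes at E41 and 9 of 10 at E62, which held for 40.1% of all genes at each stage. Within each E41 group the library with more skin markers (wild-type replicate 2, knockout replicate 1) was also the higher for RSPO1, RSPO3, AXIN2, SP5, NKD1, LEF1 and TCF7. For LGR5, SFRP2 and WIF1 that library was the lower, and a link to skin was not tested.

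**Figure D2:**
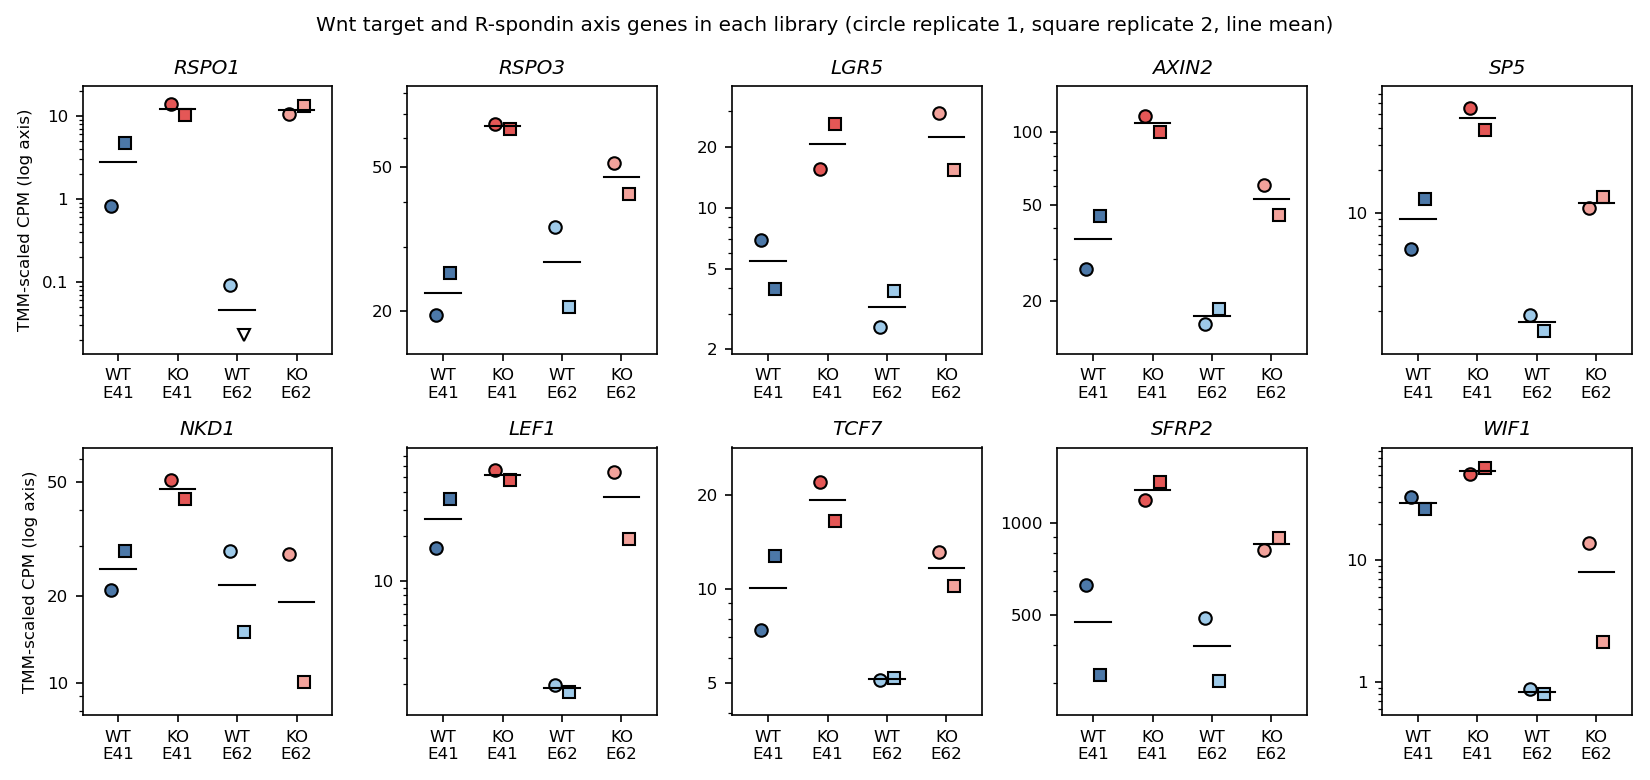
Level of the 10 genes in each library, in TMM-scaled CPM on log axes, by genotype and stage. Circles are replicate 1, squares replicate 2 and lines group means; the open triangle marks wild-type E62 replicate 2 of RSPO1, which had 0 counts and is drawn below the lowest value. Knockout libraries lie above wild-type libraries of the same stage in every panel except NKD1 at E62.

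**Figure D3:**
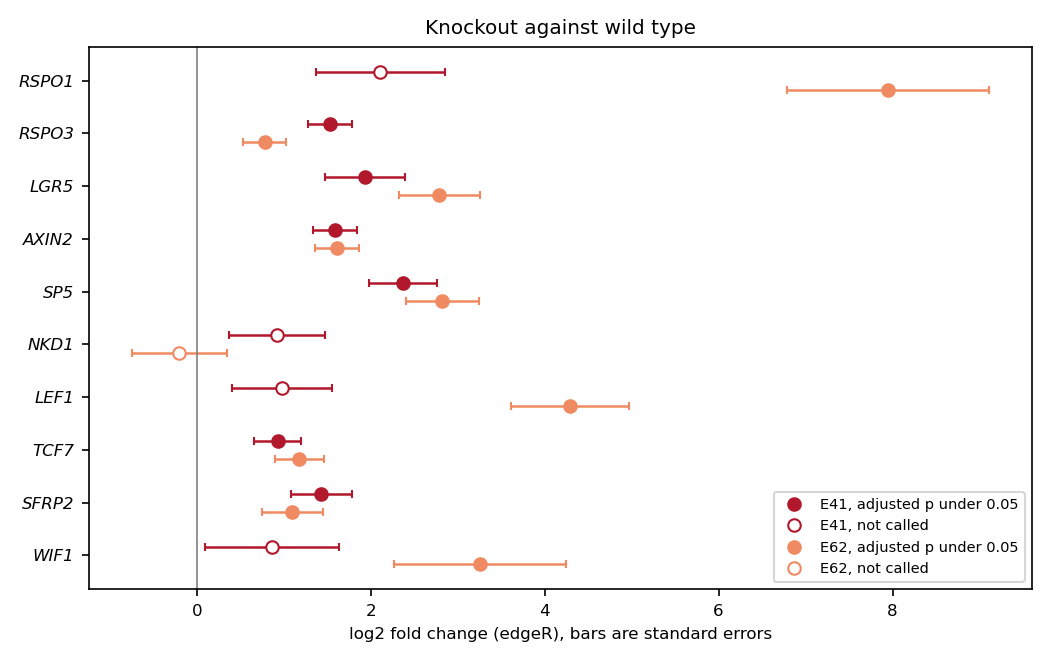
Log2 change of each gene in knockout against wild type at E41 and at E62. Bars are standard errors from the fit, which are narrower than 95% intervals. Changes at E41 run from 0.87 (WIF1) to 2.37 (SP5), and at E62 from -0.20 (NKD1) to 7.95 (RSPO1).

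RSPO1 and RSPO3 encode secreted ligands of the R-spondin family. RSPO1 (ENSSSCG00000032240, Sscrofa11.1 chromosome 6, 93664839 to 93690328) was at 0.821 and 4.69 CPM in wild type and 13.8 and 10.2 CPM in knockout at E41, and 0.0902 and 0 CPM against 10.5 and 13.0 CPM at E62. Its knockout level was thus alike at the stages while the wild-type level dropped to 3 counts in replicate 1 and 0 in replicate 2. The E41 difference was 2.11 ± 0.74 (log2, SE; adjusted p = 0.066, edgeR) and missed the threshold, beside a spread of 5.71 times between the wild-type replicates. Without wild-type E41 replicate 2 it was 3.88 (adjusted p = 0.008), and with library size scaling 2.40 (adjusted p = 0.042). At E62 RSPO1 rose (adjusted p = 0.0023), with a ratio of scaled counts of 262 and a 95% interval of 89.4 to 1270.5 that covers counting error only. The fitted log2 change of 7.95 was 6.98 without wild-type E62 replicate 2 and 11.99 without replicate 1, which leaves wild type at 0 counts, so its size is poorly fixed.

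RSPO3 (ENSSSCG00000004218, chromosome 1, 35985985 to 36066432) had 19.4 and 25.4 CPM in wild type and 65.7 and 63.8 CPM in knockout at E41, and 34.1 and 20.5 CPM against 51.5 and 42.2 CPM at E62. The groups did not overlap at either stage, and the gap was narrower at E62. RSPO3 rose by 1.53 ± 0.25 at E41 (adjusted p = 0.0037) and by 0.78 ± 0.25 at E62 (adjusted p = 0.038) in the edgeR test. The E62 call was lost without either knockout library of that stage (0.62, adjusted p = 0.15, and 0.91, adjusted p = 0.052), without wild-type replicate 2 (0.45, adjusted p = 0.096), without either knockout E41 library (adjusted p = 0.065 each) and with the E62 libraries fitted alone (adjusted p = 0.077). The difference between the stages, -0.75 ± 0.35, did not pass the test (adjusted p = 0.16, 95% interval -1.72 to 0.22), but was called without wild-type E62 replicate 2 (-1.11, adjusted p = 0.02).

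LGR5 (ENSSSCG00000030511, chromosome 5, 35463257 to 35595234) is an R-spondin receptor and a Wnt target that marks several stem cell pools. Its levels were 6.91 and 3.98 CPM in wild type and 15.5 and 25.8 CPM in knockout at E41, and 2.59 and 3.89 CPM against 29.5 and 15.4 CPM at E62. Every knockout library was at least at 15.4 CPM and every wild-type library at most at 6.91 CPM. LGR5 rose by 1.93 ± 0.46 at E41 (adjusted p = 0.017) and by 2.79 ± 0.47 at E62 (adjusted p = 0.0035, edgeR). The E41 call was lost without wild-type E41 replicate 2 (adjusted p = 0.096) or knockout E41 replicate 2 (adjusted p = 0.075).

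AXIN2 (ENSSSCG00000017265, chromosome 12, 12311293 to 12343207), a scaffold of the destruction complex, is among the most widely used targets. It had 27.2 and 45.0 CPM in wild type E41 and 117 and 100.1 in knockout E41. At E62 it had 16.1 and 18.5 CPM in wild type and 60.3 and 45.6 in knockout. The highest wild-type library stayed just under the lowest knockout library even across stages. AXIN2 rose by 1.59 ± 0.25 at E41 (3.01-fold, adjusted p = 0.0033) and by 1.61 ± 0.25 at E62 (3.06-fold, adjusted p = 0.0023) in the edgeR test. The 2 effects differed by 0.03 ± 0.35, with a 95% interval of -0.94 to 1.00, and both calls were kept under all 15 alternative settings.

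SP5 (ENSSSCG00000038355, chromosome 15, 76900138 to 76905024) encodes a zinc finger transcription factor and is a direct target in many tissues. Wild-type levels were 5.51 and 12.6 CPM at E41 and 1.89 and 1.44 at E62; knockout levels were 55.1 and 38.4 at E41 and 10.7 and 12.9 at E62. Both genotypes were lower at the later stage, and the gap between genotypes was present at each. SP5 rose by 2.37 ± 0.39 at E41 (5.16-fold, adjusted p = 0.0043) and by 2.82 ± 0.42 at E62 (7.07-fold, adjusted p = 0.0022, edgeR). These calls, too, were kept under all 15 alternatives, but the E41 size depended on wild-type replicate 2, without which it was 3.10; over all libraries left out it ran from 1.94 to 3.10.

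NKD1 (ENSSSCG00000039875, chromosome 6, 34223888 to 34319584) encodes a Dishevelled-binding antagonist that Wnt signalling induces. It had 21.1 and 28.7 CPM in wild type and 50.7 and 43.6 CPM in knockout at E41, and 28.8 and 15.0 CPM against 28.1 and 10.1 CPM at E62. Knockout libraries were higher at E41, while at E62 the genotypes overlapped and replicates differed by 1.92 times in wild type and 2.79 times in knockout. NKD1 was not called at E41 (0.92 ± 0.55, adjusted p = 0.24) or at E62 (-0.20 ± 0.55, adjusted p = 0.79, 95% interval -1.71 to 1.32). With the E41 libraries fitted alone the E41 change was called (adjusted p = 0.0069), and the E62 sign turned with library size scaling (0.10). Knockout E62 replicate 1, the library with the high skin markers, was also the higher one for NKD1, and whether these are linked was not tested.

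LEF1 and TCF7 encode HMG-box proteins that bring β-catenin to DNA. LEF1 (ENSSSCG00000009148, chromosome 8, 113824511 to 113944078) had 16.7 and 35.7 CPM in wild type and 55.7 and 47.6 CPM in knockout at E41, and 1.99 and 1.77 CPM against 54.2 and 19.1 CPM at E62. Wild type E62 stood far below the other 3 groups, and the knockout E62 replicates were 2.84 times apart. At E41 the change of 0.98 ± 0.57 was not called (adjusted p = 0.23), whereas at E62 LEF1 rose by 4.29 ± 0.68, or 19.5-fold (adjusted p = 0.0046, edgeR). LEF1 is also active in skin and hair follicles, and the skin-marker-rich knockout E62 replicate 1 held the higher LEF1 level. Without that library the E62 change was 3.34 (adjusted p = 0.0028); the 1 knockout library left is then assumed to vary like the other groups, as wherever a library is left out. It had 42.2 CPM of skin markers against 26.4 and 30.4 CPM in wild type, and the part of skin in the LEF1 level was not tested.

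TCF7 (ENSSSCG00000030680, chromosome 2, 136422740 to 136456323) had 7.39 and 12.7 CPM in wild type and 21.9 and 16.4 CPM in knockout at E41, and 5.08 and 5.18 CPM against 13.1 and 10.2 CPM at E62. Genotypes did not overlap at either stage, and wild type E62 was the lowest and tightest group. TCF7 rose by 0.93 ± 0.27 at E41 (1.90-fold, adjusted p = 0.031) and by 1.18 ± 0.28 at E62 (2.27-fold, adjusted p = 0.01) in the edgeR test. At E41 the call was lost without wild-type replicate 1 (0.63, adjusted p = 0.1), without knockout replicate 1 (0.71, adjusted p = 0.17), with the E41 libraries fitted alone (adjusted p = 0.052) and with a replicate block (adjusted p = 0.056). The E62 call was lost without wild-type E62 replicate 1 (adjusted p = 0.057).

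SFRP2 and WIF1 encode secreted proteins that bind Wnt ligands. SFRP2 (ENSSSCG00000009004, chromosome 8, 75337311 to 75345926), a gene of connective tissue, had 629 and 319 CPM in wild type and 1193 and 1369 CPM in knockout at E41, and 491 and 305 CPM against 816 and 892 CPM at E62. The knockout libraries were higher at both stages, as the fibroblast marker sums were. SFRP2 rose by 1.43 ± 0.35 at E41 (2.70-fold, adjusted p = 0.02) and by 1.10 ± 0.35 at E62 (2.15-fold, adjusted p = 0.04, edgeR). The E41 change was 2.05 without wild-type E41 replicate 1, and its call was lost without knockout E41 replicate 1 (adjusted p = 0.061) or replicate 2 (adjusted p = 0.086). At E62 it was lost without the low-count filter (adjusted p = 0.053) and without either knockout E41 library (0.068 each), wild-type E62 replicate 2 (0.18), or knockout E62 replicate 1 (0.1) or 2 (0.13), all adjusted p.

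WIF1 (ENSSSCG00000030998, chromosome 5, 29450442 to 29543913) had 33.3 and 26.3 CPM in wild type and 51.6 and 57.1 CPM in knockout at E41, and 0.872 and 0.795 CPM against 13.9 and 2.12 CPM at E62. It was far lower at E62, and the knockout E62 replicates were 6.54 times apart, replicate 1 again being the higher. The E41 change of 0.87 ± 0.77 was not called (adjusted p = 0.42), but was with the E41 libraries fitted alone (adjusted p = 0.0053) or without either knockout E62 library (adjusted p = 0.0023). At E62 WIF1 rose by 3.26 ± 0.99 (adjusted p = 0.044, edgeR), a call lost in 9 of 15 alternatives, with adjusted p up to 0.19. Without knockout E62 replicate 1 the change was 1.34 (adjusted p = 0.0029) and without replicate 2 it was 4.05 (adjusted p = 7.3e-06). Leaving out knockout E62 replicate 1 left 7 of the 10 genes called at E62: AXIN2, SP5, LGR5, RSPO1, LEF1, TCF7 and WIF1.

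The next comparisons asked how the genes change between the stages within each genotype. In wild type 6 of 10 fell from E41 to E62 (AXIN2, SP5, RSPO1, LEF1, TCF7 and WIF1), where 20.0% of all genes fell, and 0 rose by the edgeR test, where 19.8% of all genes rose. It was 0 also at an unadjusted p under 0.05 and with DESeq2. The median log2 change was -1.02 against 0.03 over all genes. LEF1 fell by 3.80 ± 0.68 (adjusted p = 0.0093) and WIF1 by 5.15 ± 1.02 (adjusted p = 0.014). SP5 fell by 2.44 ± 0.43 (adjusted p = 0.0059), AXIN2 by 1.06 ± 0.25 (adjusted p = 0.017) and TCF7 by 0.97 ± 0.28 (adjusted p = 0.028). RSPO1 was called lower at E62 (adjusted p = 0.012), with a ratio of scaled counts of 63.6 and a counting interval of 21.3 to 313. Both E62 libraries lay below both E41 libraries for 7 of 10 genes, against 34.3% of all genes. Without wild-type E62 replicate 1 the lower calls numbered 2, and without replicate 2 they numbered 0 after adjustment (edgeR), with 5 and 6 at an unadjusted p under 0.05. The changes kept their direction and most of their size without replicate 2: LEF1 -3.65, WIF1 -5.02, SP5 -2.18, RSPO1 -4.82, AXIN2 -1.09 and TCF7 -0.91, with adjusted p from 0.051 to 0.12. RSPO3 was then called higher (0.68, adjusted p = 0.035). Wild-type E41 replicate 2 also set the size: without it SP5 was at -1.67, LEF1 at -3.09 and RSPO1 at -4.06. The skin epithelium markers fell over the same interval in wild type (3 of 6 called), from 690 and 1201 CPM to 26.4 and 30.4 CPM, and their part in the falls of LEF1, WIF1 and SP5 was not tested.

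In knockout 2 of 10 fell from E41 to E62, where 18.0% of all genes fell: AXIN2 by 1.04 ± 0.25 (adjusted p = 0.022) and SP5 by 1.98 ± 0.38 (adjusted p = 0.011, edgeR). By this test 0 of the 10 rose, where 12.1% of all genes rose. It was 0 also at an unadjusted p under 0.05 and with DESeq2, which called 3 lower. The AXIN2 call was lost without knockout E41 replicate 1 (adjusted p = 0.11) or 2 (0.061) or knockout E62 replicate 2 (0.098), and the SP5 call without knockout E41 replicate 1 (0.059). RSPO1 changed by -0.03 ± 0.68 (95% interval -1.92 to 1.86) and LGR5 by 0.12 ± 0.42 (-1.06 to 1.30), so these intervals leave room for several-fold changes. WIF1 was at -2.76 ± 0.82 (adjusted p = 0.058). Both E62 libraries lay below both E41 libraries for 7 of 10 genes, where this held for 40.6% of all genes, and the median was -0.65 against -0.03.

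**Figure D4:**
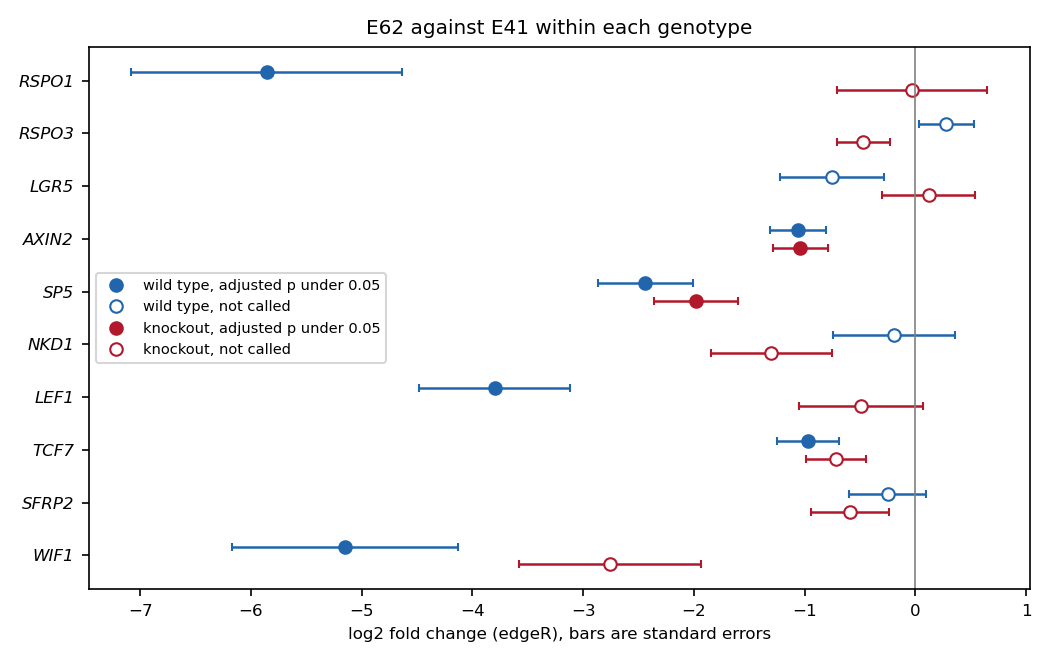
Log2 change of each gene from E41 to E62 in wild type and in knockout. Bars are standard errors from the fit, which are narrower than 95% intervals. RSPO1 (-5.86) and LEF1 (-3.80) fell in wild type and lay within their standard error of 0 in knockout (-0.03 and -0.49). AXIN2 fell by about the same amount in both (-1.06 and -1.04).

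Whether the knockout effect differed between stages was tested as the difference of the 2 genotype effects. Of the 10 genes, 2 were called higher at E62, where 11.2% of all genes were. By the edgeR test 0 were called lower, where 15.5% of all genes were; DESeq2 also called 0, and at an unadjusted p under 0.05 these tools had 0 and 1. LEF1 had a difference of 3.31 ± 0.87 (adjusted p = 0.043) and RSPO1 one of 5.83 ± 1.45 (adjusted p = 0.031), a fitted value that rests on 3 wild-type counts at E62. Each of these calls was lost in 7 of 14 alternatives. With a library left out the RSPO1 difference ran from 4.07 (without wild-type E41 replicate 2) to 9.84 (without wild-type E62 replicate 1), and that of LEF1 was 2.64 without wild-type E41 replicate 2 and 2.36 without knockout E62 replicate 1. For SP5, LGR5, TCF7, SFRP2, NKD1 and WIF1 the difference was not called (adjusted p from 0.22 for WIF1 to 0.66 for TCF7 and SFRP2). The interval for WIF1 ran from -1.10 to 5.88, and its difference was called without knockout E62 replicate 2 (3.18, adjusted p = 0.00076). NKD1 had a difference of -1.12 ± 0.78 (adjusted p = 0.34) and was called without knockout E62 replicate 1 (-2.05, adjusted p = 0.047).

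The other genes of the R-spondin axis were read beside them. LGR4, the broadly expressed R-spondin receptor, had 87.0 and 70.3 CPM in wild type and 183 and 205 CPM in knockout at E41, and 72.8 and 79.0 CPM against 79.6 and 81.1 CPM at E62. It stood out in knockout E41 alone, rising by 1.30 ± 0.12 (adjusted p = 0.00021), and at E62 it was at 0.08 ± 0.12 (adjusted p = 0.59; with library size scaling 0.39, adjusted p = 0.022). RNF43, the ligase that R-spondins hold off, had 1.55 and 2.88 CPM in wild type and 10.1 and 8.42 CPM in knockout at E41, and 0.451 and 0.825 CPM against 6.18 and 2.74 CPM at E62. It rose by 2.06 ± 0.49 at E41 (adjusted p = 0.013) and by 2.80 ± 0.52 at E62 (adjusted p = 0.0037, edgeR; 2.09 without knockout E62 replicate 1), the E41 call being lost without wild-type E41 replicate 1 (0.077) or knockout E41 replicate 1 (0.063). ZNRF3, its paralog, was at 0.16 ± 0.21 at E41 (adjusted p = 0.59) and -0.58 ± 0.21 at E62 (adjusted p = 0.055), which DESeq2 called lower (adjusted p = 0.039). RSPO2, the R-spondin best known from limb outgrowth, was not called at E41 (0.58, adjusted p = 0.57) or E62 (-0.60, adjusted p = 0.56). RSPO4 had at most 19 counts in a library. LGR6 had 3 to 141 counts in 7 libraries and 1263 in knockout E62 replicate 1, the library with the high skin markers.

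A list of 89 further Wnt pathway genes held 83 that passed the filter. WNT4, TCF7L1 and PYGO2 had no identifier with that symbol, and WNT1, WNT8A and WNT8B were below the filter. At E41, 33 of 83 rose and 4 fell in the knockout, with a median of 0.58, where 18.5% of all genes rose and 20.8% fell. At E62, 22 of 83 rose and 25 fell, with a median of -0.01, near the shares over all genes of 21.0% and 26.2%. The E41 count rested on both knockout libraries: without either, fewer pathway genes were called, and fewer of all genes were called as well. With library size scaling the E62 split was 28 higher and 14 lower.

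**Figure D5:**
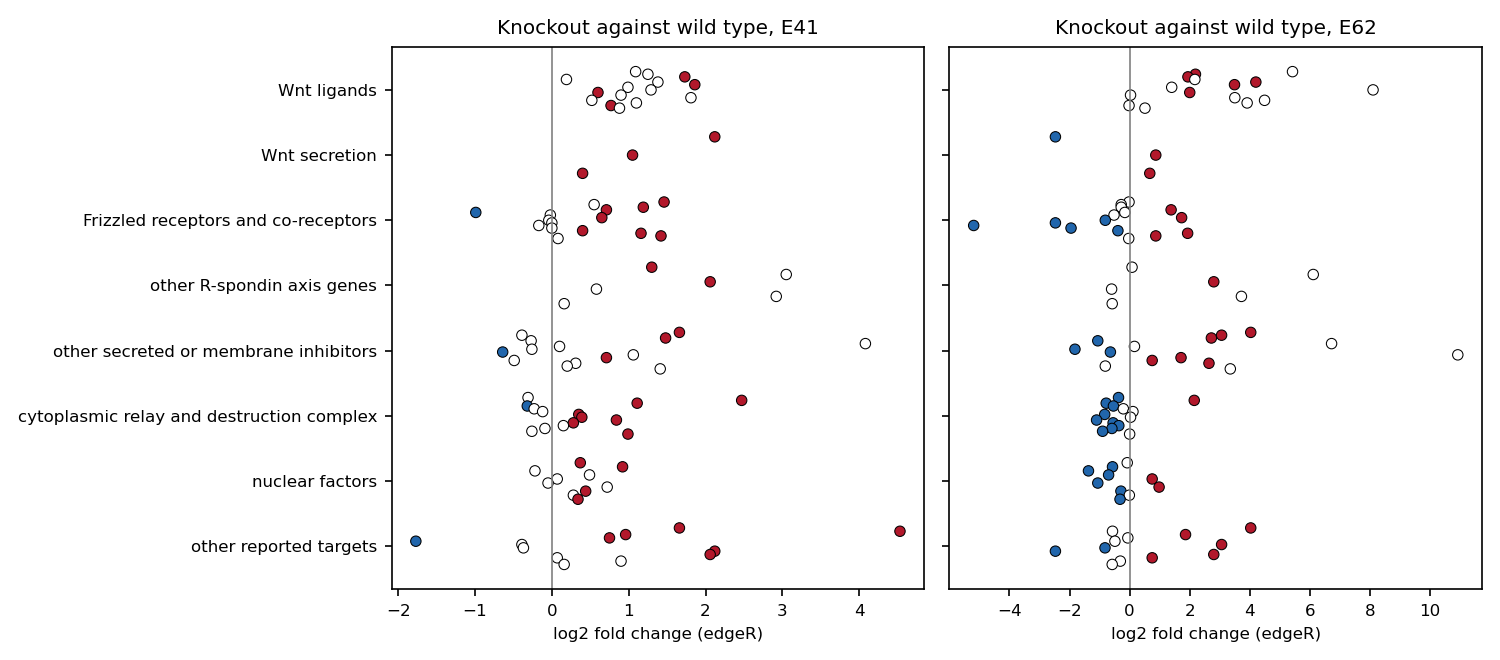
Log2 change of each tested gene of the Wnt pathway lists in knockout against wild type at E41 and at E62. Red points are higher, blue lower and white not called, and the panels have different ranges. At E62, where 26.2% of all genes fell, 9 of 14 cytoplasmic genes and 6 of 10 nuclear factors are blue, and 0 of 15 ligands.

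Of 15 Wnt ligands, 4 rose at E41 and 5 at E62, not far from the 18.5% and 21.0% of all genes that rose. At each stage 0 fell, where 20.8% and 26.2% of all genes fell. Their median log2 change was 1.09 at E41 and 2.19 at E62, against 0.09 and 0.06 over all genes. At E62 several were far higher in knockout replicate 1 than in replicate 2, among them WNT7B (14.1 and 0.284 CPM). WNT11, a noncanonical ligand, rose by 1.73 ± 0.15 at E41 (adjusted p = 0.00016) and by 1.94 ± 0.15 at E62 (adjusted p = 4.7e-05). WNT5A rose by 0.60 at E41 (adjusted p = 0.0082) and by 2.0 ± 0.14 at E62 (adjusted p = 2.3e-05). WNT2B rose by 1.86 at E41 (adjusted p = 0.038) and by 3.49 ± 0.54 at E62 (adjusted p = 0.004, edgeR). The E62 change of WNT2B was 4.36 without wild-type E62 replicate 2. WNT2 rose at E62 by 4.20 ± 0.60 (adjusted p = 0.0029). PORCN, which attaches the lipid that Wnts need for secretion, rose by 1.05 ± 0.22 at E41 (adjusted p = 0.0071) and 0.87 ± 0.22 at E62 (adjusted p = 0.013); the calls were lost without knockout E41 replicate 2, and without wild-type or knockout E62 replicate 2. NOTUM, the enzyme that removes this lipid, rose at E41 (2.12 ± 0.53, adjusted p = 0.018) and fell at E62 (-2.47 ± 0.52, adjusted p = 0.0068; -3.64 without knockout E62 replicate 1 and -1.84 without replicate 2). The E41 NOTUM call was lost without any single E41 library (adjusted p from 0.059 to 0.1).

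Of 15 Frizzled receptors and co-receptors, 7 rose and 1 fell at E41, where 18.5% of all genes rose and 20.8% fell. At E62, 4 rose and 5 fell, near the all-gene shares of 21.0% and 26.2%. FZD2 rose at E41 (1.19 ± 0.11, adjusted p = 0.00022) and ROR2, a receptor for WNT5A, at both stages (1.42 and 0.87, adjusted p = 2e-04 and 0.0012). LRP5, a co-receptor for canonical Wnts, fell at E62 (-1.95 ± 0.12, adjusted p = 1.1e-05). Of 14 cytoplasmic genes, 7 rose and 1 fell at E41, and 1 rose and 9 fell at E62, beside the same all-gene shares. AXIN1, the constitutive relative of AXIN2, rose at E41 (1.11 ± 0.14, adjusted p = 9e-04) and fell at E62 (-0.78 ± 0.14, adjusted p = 0.0027), whereas AXIN2 rose at both. DVL1 had the same course (0.84 and -1.10, adjusted p = 0.003 and 0.00054). CTNNB1, which encodes β-catenin, was not called at E41 (-0.12 ± 0.12, adjusted p = 0.45; with library size scaling 0.17) or at E62 (0.11 ± 0.12, adjusted p = 0.47; with library size scaling 0.41, adjusted p = 0.019). RNA levels do not report β-catenin protein.

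Over all genes 18.5% rose and 20.8% fell at E41, and 21.0% rose and 26.2% fell at E62, and the lists that follow were not tested against these shares. Of 14 other inhibitors, 3 rose and 1 fell at E41, and 6 rose and 3 fell at E62. DKK2, which binds LRP co-receptors, rose at both stages (1.48 and 2.72, adjusted p = 0.0058 and 0.00041). APCDD1, a membrane inhibitor and reported target, rose by 1.66 at E41 (adjusted p = 0.036) and by 4.03 ± 0.52 at E62 (adjusted p = 0.0018, edgeR). Its E62 change was 3.19 without knockout E62 replicate 1. Of 10 nuclear factors, 4 rose and 0 fell at E41, and 2 rose and 6 fell at E62. BCL9L, a β-catenin cofactor, rose at E41 (0.92, adjusted p = 0.00096) and fell at E62 (-0.57, adjusted p = 0.0058; with library size scaling -0.26, adjusted p = 0.12). CTNNBIP1, which blocks β-catenin from TCF factors, fell at E62 (-1.37, adjusted p = 3.9e-05). Of 12 other reported targets, several of which also stand in the lists above, 6 rose and 1 fell at E41, and 5 rose and 2 fell at E62. BAMBI rose at both stages (0.96 and 1.86, adjusted p = 0.0031 and 9.7e-05), and CD44 fell at E41 (-1.77, adjusted p = 0.00045). MYC fell at E62 (-0.82, adjusted p = 0.0018, edgeR).

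The profiles over the 8 libraries were also compared by the root mean square difference of centred log2 CPM, a description that includes genotype, stage and depth. Among the 10 genes AXIN2 and TCF7 were the closest pair (0.31) and RSPO1 and NKD1 the farthest (2.88). RSPO3 lay closest to SFRP2 (0.41). Of 12578 candidates outside the 10, AXIN2 was most like RARG (0.22), FOSL2 (0.22) and RASSF8 (0.24). RSPO3 was most like BCL2L11 (0.18), TCTE1 (0.19) and LRRTM4 (0.20), and SFRP2 most like CPE (0.26), PORCN (0.27) and TNS3 (0.27).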

How the data were processed

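Limb muscle libraries of 8 samples were grouped by the genotype, stage and replicate in their titles. The authors deposited estimated counts per gene (expected counts), whole numbers that are not normalized. Per the submitters' processing notes, the tools were kallisto and DESeq2, and the builds were listed as Sscrofa11.1 and susScr11, with no role or version. The sources used here do not give annotation release or strand, so overlapping and antisense genes cannot be told apart. Per the labels' protocols, either a TruSeq RNA or a Stranded mRNA kit was used. The numbers in the library names differ between groups, and what they mark cannot be told apart from the group; the tags LHL and RHL are given with the groups above. The sample labels say knockout, but the series title has knockdown.

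Symbols were found for 15527 of 22516 identifiers (69.0%), and coordinates come from the RefSeq table of Sscrofa11.1. Counts were rounded and filtered with filterByExpr (minimum count 10). After TMM scaling, edgeR 4.0.16 (R 4.3.3) fitted a robust quasi-likelihood model of 1 mean per group over all 8 libraries (4 residual degrees of freedom, common biological coefficient of variation 0.204). Tests were two-sided with Benjamini-Hochberg adjustment over 17020 genes, SEs derive from the F statistic, and 95% intervals of a change use 4 degrees of freedom. Within each group the 2 libraries differed beyond sampling noise, with a chi-square of 30.0 to 68.0 per degree of freedom. The steps were tested on simulated data.

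All 10 genes were named whatever their values; pathway genes were named from those with the smallest p in each list, with the R-spondin axis genes and CTNNB1 always eligible. Members and lists were chosen with earlier results of these data known. Alternatives were DESeq2 1.42.0, relative log expression factors, library size alone, no low-count filter, at least 1 CPM in 2 libraries, the replicate number as a block, the compared groups alone and each library left out in turn; those for pathway genes and list counts were added after seeing the data. Sequences were not used here.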

Additional observations from a re-analysis of the deposited data

Results flagged for a closer look

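The knockout effect differed between E62 and E41 by edgeR's test of the difference for 2 of the 10 genes. The log2 difference was 5.83 for RSPO1 (adjusted p = 0.031) and 3.31 for LEF1 (adjusted p = 0.043), and each call was lost in 7 of 14 alternatives. It was larger at E62 also for WNT5A (1.40, adjusted p = 0.0023). It was lower at E62 for LGR4 (-1.22, adjusted p = 0.0027), NOTUM (-4.58, adjusted p = 0.0054) and FZD2 (-1.47, adjusted p = 0.0012). The same held for LRP5 (-1.95, adjusted p = 0.00065), AXIN1 (-1.89, adjusted p = 0.0012), DVL1 (-1.95, adjusted p = 0.0011) and BCL9L (-1.49, adjusted p = 0.0014). The NOTUM difference was -5.76 without knockout E62 replicate 1 and -3.96 without replicate 2. These pathway genes were named for a small p in a genotype comparison or as R-spondin axis genes.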

How the results depend on the processing

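The number of the 10 genes called was 6 at E41 (4 to 7 over the alternatives) and 9 at E62 (6 to 9). For the difference between stages it was 2, and 1 with no low-count filter, 0 with the replicate block (2 at an unadjusted p under 0.05, edgeR; DESeq2 called 2) and 0 to 2 with a library left out. For wild type E62 against E41 it was 6, and 1 to 6 with a library left out. For knockout it was 2, and 4 with only the groups compared and 0 to 4 with a library left out. The cause was not tested. Signs turned for these uncalled changes. Library size alone gave 0.10 for NKD1 at E62 and 0.17 for CTNNB1 at E41. RSPO1 in knockout over stages was 0.02 with DESeq2, relative log expression factors or library size alone, 0.04 with at least 1 CPM in 2 libraries and 0.03 with only the groups compared. With a library left out, the E62 values ran from -1.13 to 0.36 for NKD1, -1.53 to 0.68 for RSPO2 and -0.03 to 0.22 for CTNNB1. The differences between stages ran from -0.40 to 0.30 for AXIN2, -0.28 to 0.88 for SP5, -0.21 to 0.55 for TCF7 and -0.95 to 0.06 for SFRP2. Wild-type stage changes ran from -0.06 to 0.68 for RSPO3, -0.66 to 0.28 for NKD1 and -0.61 to 0.40 for SFRP2; knockout ones ran from -0.43 to 0.53 for LGR5, -0.24 to 0.21 for RSPO1 and -1.44 to 0.07 for LEF1. Library size alone moved the median of all genes by 0.29 at E41 and 0.30 at E62, and the share of calls that were higher from 47.1% to 73.6% and from 44.5% to 69.4%. Over all genes, the E41 count of 6678 was 3927 without knockout E41 replicate 1 and 4036 without replicate 2. Same-numbered libraries had deviation correlations of -0.12 to 0.08 between groups. With 1 replicate difference per group, these cannot tell whether such libraries share more than a number. The replicate block left 5 of 10 genes called at E41 and 8 at E62. With 2 libraries per group, intervals are wide, and RSPO1 in wild type E62 is limited by 3 counts.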
